A study of Mus musculus with 24 samples.

Results

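Bidirectional coding promoters were the autosomal ATAC-seq peaks of mouse germinal center (GC) B cells that held transcription start sites (TSSs) of at least 2 different protein-coding genes on opposite strands. They numbered 1142 of the 65483 consensus peaks (1.74%). TSSs were those of protein-coding transcripts in the mm10 GENCODE annotation, so the level of a peak played no part in the choice beyond the peak having been called. ATAC-seq counts DNA fragments that a transposase cuts out of open chromatin, and the value of a peak is the number of fragments that overlapped it.

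GC B cells were sorted from spleens 10 days after immunization with sheep red blood cells (SRBC), with 60000 live cells per library and 1 library per mouse. All mice, WT included, carried 1 Cγ1 cre allele, in which Cre is expressed from the Cγ1 locus in B cells that transcribe it, mostly in the GC and not in every cell. The 4 WT mice (Cγ1 cre/+) had no floxed allele, the 4 C mice were also Crebbp fl/+, the 4 K mice also Kmt2d fl/+, and the 5 CK mice carried both floxed alleles, and the study describes the mice as young adult C57BL/6J females. CREBBP is a histone acetyltransferase and KMT2D a histone H3 methyltransferase, and the comparisons ask how accessibility differs when 1 allele of either gene, or of both, is deleted.

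A bidirectional promoter lies between a pair of genes transcribed away from each other, or whose 5′ ends overlap, so that a single stretch of open chromatin serves both. Such promoters are typically CpG-rich, mostly lack a TATA box, and are common among housekeeping genes for DNA repair, mitochondrial function and RNA processing. Fragments carry no strand of transcription, so each peak has a single count and a change in it cannot be assigned to either gene.

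The promoters held TSSs of 2304 genes. In 1108 of them there were 2 coding genes, and the other 34 held up to 5. The closest opposite-strand TSS pair was divergent in 916 peaks (80.2%), at a median distance of 118 bp and an interquartile range from 64 to 245 bp. Of the divergent pairs 735 (80.2%) lay at most 300 bp apart. The other 226 pairs overlapped, by 189.5 bp in the median, and at Nsa2/Gfm2 and Gm49661/Rnaseh2a/Prdx2 both TSSs fell on the same base. In 131 peaks (11.5%) a partner had a Gm or Rik symbol, a predicted or cDNA-based gene model whose coding status is less certain.

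**Figure D1:**
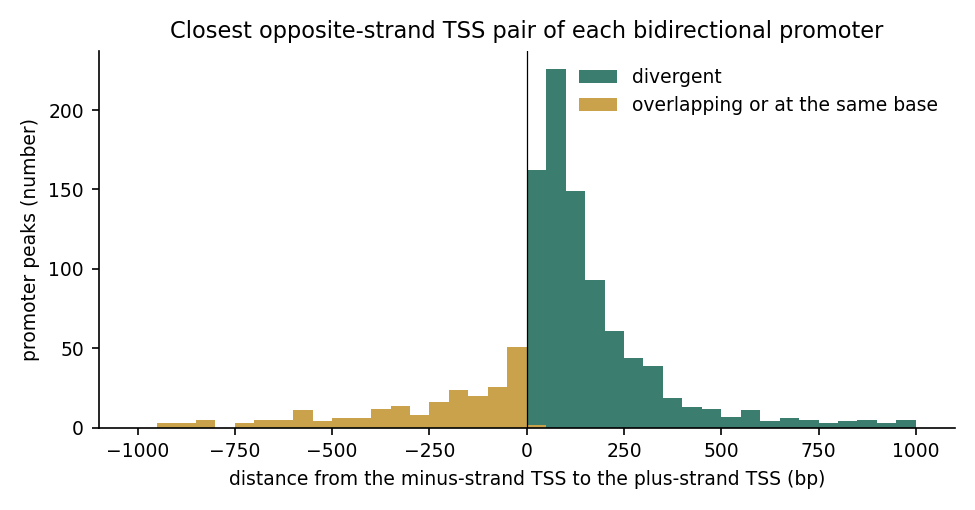
Number of bidirectional promoter peaks (y axis) by distance in bp from the minus-strand to the plus-strand TSS of the closest pair (x axis). Positive distances are divergent pairs and those at or below 0 overlapping ones, 735 of the 916 divergent pairs lie at most 300 bp apart, and the 47 pairs beyond 1000 bp on either side are not drawn.

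The sequences of 6 promoters are given as 300 bases centred between the TSSs of the closest pair, read 5′ to 3′ on the plus strand of GRCm38, the assembly that mm10 names. Capitals mark the stretch from the minus-strand TSS to the plus-strand TSS, and the minus-strand gene, named first, runs to the left. Acad8/Thyn1 (chr9:26999488-26999787), Kdelc1/Bivm (chr1:44118732-44119031) and Zfyve28/Cfap99 (chr5:34288368-34288667) are shown because they were gained in CK mice, and Syngr4/Tmem143 (chr7:45896677-45896976) because it was lost there. Hspd1/Hspe1 (chr1:55087928-55088227) and Surf1/Surf2 (chr2:26916206-26916505) are textbook examples of the class.
Acad8/Thyn1: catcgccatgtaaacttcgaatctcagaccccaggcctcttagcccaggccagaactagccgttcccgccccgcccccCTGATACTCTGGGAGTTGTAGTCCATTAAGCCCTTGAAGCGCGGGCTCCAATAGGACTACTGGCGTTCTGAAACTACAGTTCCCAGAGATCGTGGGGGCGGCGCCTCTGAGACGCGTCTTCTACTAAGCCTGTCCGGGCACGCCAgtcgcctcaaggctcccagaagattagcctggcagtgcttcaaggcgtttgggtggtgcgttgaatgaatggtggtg
Kdelc1/Bivm: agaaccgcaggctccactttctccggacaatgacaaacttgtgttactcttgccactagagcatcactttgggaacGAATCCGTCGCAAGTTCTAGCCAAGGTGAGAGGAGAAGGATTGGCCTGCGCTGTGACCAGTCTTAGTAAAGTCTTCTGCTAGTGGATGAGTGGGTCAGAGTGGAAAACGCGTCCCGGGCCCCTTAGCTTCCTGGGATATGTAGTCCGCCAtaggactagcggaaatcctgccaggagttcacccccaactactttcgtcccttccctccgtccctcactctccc
Zfyve28/Cfap99: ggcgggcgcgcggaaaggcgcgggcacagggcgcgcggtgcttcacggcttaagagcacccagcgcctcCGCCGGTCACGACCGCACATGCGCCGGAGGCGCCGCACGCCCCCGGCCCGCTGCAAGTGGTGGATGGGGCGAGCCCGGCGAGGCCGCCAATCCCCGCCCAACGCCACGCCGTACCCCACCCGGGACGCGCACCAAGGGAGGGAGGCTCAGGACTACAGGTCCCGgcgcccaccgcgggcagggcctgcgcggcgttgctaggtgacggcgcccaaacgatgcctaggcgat
Syngr4/Tmem143: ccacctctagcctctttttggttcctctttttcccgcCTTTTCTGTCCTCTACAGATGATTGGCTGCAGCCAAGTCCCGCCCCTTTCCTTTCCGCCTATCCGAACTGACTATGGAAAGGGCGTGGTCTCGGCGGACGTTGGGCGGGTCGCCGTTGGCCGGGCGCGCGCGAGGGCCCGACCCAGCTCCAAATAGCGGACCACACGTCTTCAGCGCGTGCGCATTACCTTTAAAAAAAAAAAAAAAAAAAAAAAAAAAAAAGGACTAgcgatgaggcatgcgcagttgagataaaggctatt
Hspd1/Hspe1: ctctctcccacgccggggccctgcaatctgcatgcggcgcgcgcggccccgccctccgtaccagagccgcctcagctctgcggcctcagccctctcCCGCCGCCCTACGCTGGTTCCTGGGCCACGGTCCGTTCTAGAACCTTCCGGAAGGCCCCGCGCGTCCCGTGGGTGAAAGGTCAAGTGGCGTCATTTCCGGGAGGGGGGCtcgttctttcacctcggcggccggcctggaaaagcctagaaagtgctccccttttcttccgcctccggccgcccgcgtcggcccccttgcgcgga
Surf1/Surf2: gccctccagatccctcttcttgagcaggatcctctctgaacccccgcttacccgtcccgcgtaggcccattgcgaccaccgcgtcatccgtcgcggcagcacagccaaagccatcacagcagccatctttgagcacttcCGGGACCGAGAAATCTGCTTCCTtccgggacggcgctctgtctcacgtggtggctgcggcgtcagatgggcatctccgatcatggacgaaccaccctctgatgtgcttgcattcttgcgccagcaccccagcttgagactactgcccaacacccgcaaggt

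Short motifs were searched on both strands in such windows of all 1142 promoters and in windows of the same length at a TSS of the 10982 autosomal peaks with TSSs of exactly 1 coding gene, referred to as single-gene promoters. The ETS core CCGGAAG stood in 313 bidirectional windows (27.4%) and in 1705 single-gene windows (15.5%). In the same order, the NFY box CCAAT was found in 36.4% and 31.8%, the NRF1 motif GCATGCGC in 5.78% and 4.23%, the YY1 motif AAGATGG in 9.46% and 7.25%, the cAMP response element TGACGTCA in 4.2% and 2.94% and the palindrome CTCGCGAG in 2.8% and 1.45%. The SP/KLF box GGGCGG was found in 65.1% and 68.0%, the E-box CACGTG in 9.89% and 8.94% and TATAAA in 4.47% and 4.32%. The octamer ATGCAAAT of B cell promoters stood in 0.613% and 1.25%, and the PU.1 site GAGGAAGT in 2.45% and 3.07%. These are shares of windows with the letters, not of occupied sites, and the single-gene windows were richer in GC (median 66% against 63.3%). The single-gene windows were centred on 1 TSS and the others between 2. The single-gene class also held weaker promoters, with a 10th percentile of 3.08 CPM in WT mice against 26.2. The part of these differences in the shares was not tested.

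Among the printed windows the ETS core occurred in Hspd1/Hspe1 (with SP/KLF) and in Surf1/Surf2 (with YY1 and the E-box). Acad8/Thyn1 and Zfyve28/Cfap99 held NFY and SP/KLF motifs, Kdelc1/Bivm NFY alone, and Syngr4/Tmem143 NRF1, NFY and SP/KLF. The gained promoters spanned a wide range of CpG content, with 44 CpGs and 75.3% GC in the Zfyve28/Cfap99 window against 13 CpGs and 54.0% GC in that of Kdelc1/Bivm.

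In WT mice the bidirectional promoters were open. Their median level was 58.1 in counts-per-million units (CPM, of the fragments in peaks after scaling of the libraries), against 35.2 CPM at single-gene promoters and 3.15 CPM at autosomal peaks without a coding TSS. Per kb of peak these medians were 33.9, 21.7 and 3.98. Few bidirectional promoters were weak, the 10th percentile being 26.2 CPM against 3.08 CPM. Median GC content was 57.1% in both promoter classes, and the median observed to expected CpG ratio 0.714 against 0.662. Mice differed less at the bidirectional promoters, with a median SD of 0.0734 in log2 CPM against 0.0913 at single-gene promoters, whose counts were lower.

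WT accessibility was higher where divergent TSSs lay farther apart. The 163 pairs up to 50 bp apart had a median of 27.3 CPM per kb, the 239 pairs over 100 and up to 200 bp apart 35.9, and the 53 pairs over 500 and up to 1000 bp apart 45.0. The 45 pairs beyond that had 31.3 CPM per kb in longer peaks (median 2831 bp). Over the 916 divergent promoters, measured in the same libraries, Spearman's rho of distance and CPM per kb was 0.244. Overlapping pairs had a median of 28.1 CPM per kb.

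The densest promoter was Rnf5/Agpat1, which joins a ubiquitin ligase of the endoplasmic reticulum (ER) membrane and an enzyme of phosphatidic acid synthesis, with 117 CPM per kb in WT mice. It was followed by Fbxo24/Lrch4 (111), Tom1l2/Drc3 (111), Srgap2/Fam72a (103) and Ddias/Prcp (95.5). None of these 5 was called in any comparison by edgeR with the reported scaling, and their log2 fold changes in CK against WT lay between -0.06 and 0.03. With libraries scaled within bins of GC content, Fbxo24/Lrch4 and Srgap2/Fam72a were lost in CK against WT, with log2 fold changes of -0.16 (adjusted p = 0.00214) and -0.19 (adjusted p = 0.00139). The least dense were Gm10447/Shroom1 (1.27), Lrrc43/Il31 (1.32), Mapk4/Gm9925 (1.41), Ppp1r3d/Fam217b (1.41) and AI661453/1700001C19Rik (1.5).

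The libraries held 17483706 to 21857738 fragments in peaks, of which 1285507 to 1601156 lay in the bidirectional promoters, and all 1142 passed the filter on low counts. All 9 GC B cell markers had a promoter peak, summing to 627 to 701 CPM in WT mice, 598 to 650.0 in C mice, 619 to 640.0 in K mice and 567 to 643 in CK mice. Of the naive B cell markers 2 of 4 had one (Fcer2a and Ccr7), summing to 35.7 to 40.3 CPM in WT mice, 29.7 to 37.0 in C mice, 18.3 to 26.6 in K mice and 22 to 26.8 in CK mice. Over all mice 4 of 4 plasma cell markers summed to 220.0 to 251 CPM, 2 of 6 T cell markers (not Cd3e, Cd3g, Cd4 or Cd8a) to 23.1 to 34.2, 2 of 4 myeloid markers (not Lyz2 or Itgam) to 5.54 to 8.33 and 3 of 3 stromal markers to 75.1 to 93.1, and 0 of 3 red cell markers had a peak. The part of other cells in the results was not tested, and in bulk samples fewer cells of a type and less signal per cell cannot be told apart. Y chromosome fragments were counted in peaks of the short arm and the start of the long arm, away from the distal repeats. Against the description of the mice as female, 9 libraries (2 WT, 2 C, 3 K and 2 CK) held at least 1421 fragments there, and the other 8 at most 1.

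The dependence of the counts on GC content also varied between libraries, and it moved with genotype. The slope of a library's log2 CPM on GC content over all peaks, relative to the mean of the libraries, was -0.0657 ± 0.0454 per 10 percentage points of GC in WT (SD, n = 4), -0.054 ± 0.0209 in C (n = 4), 0.0425 ± 0.0477 in K (n = 4) and 0.0618 ± 0.0265 in CK mice (n = 5). It was below 0 in every WT and C library and above 0 in every K and CK library. With and without Y signal the mean slopes were -0.0266 and -0.105 in WT and -0.0365 and -0.0714 in C mice. In the same order they were 0.0463 and 0.0311 in K mice, with 1 K mouse without Y signal, and 0.0844 and 0.0467 in CK mice. The bidirectional promoters are GC-rich (median 57.1% against 48.2% over all peaks), and the part of this slope in their differences was not tested, so the main results are also given with libraries scaled within bins of GC content.

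The bidirectional promoters took a slightly larger mean share of the fragments in K and CK mice, given here without a test. The share was 7.211, 7.374, 7.128 and 7.043% in the WT mice and 7.246, 7.325, 7.007 and 7.088% in the C mice. It was 7.565, 7.535, 7.263 and 7.203% in the K mice and 7.493, 7.412, 7.239, 7.382 and 7.353% in the CK mice. WT and C mice covered nearly the same range, and K and CK mice lay higher but overlapped them, since WT replicate 2 exceeded 2 K and 2 CK mice. The means were 7.19 ± 0.141% in WT (SD, n = 4), 7.17 ± 0.145% in C (n = 4), 7.39 ± 0.185% in K (n = 4) and 7.38 ± 0.0927% in CK (n = 5). With Y signal the means of WT and CK were 7.29% and 7.44%, and without it 7.09% and 7.33%. Single-gene promoters moved alike, from 44.0 ± 0.754% in WT to 45.6 ± 1.0% in K and 45.7 ± 0.529% in CK.

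**Figure D2:**
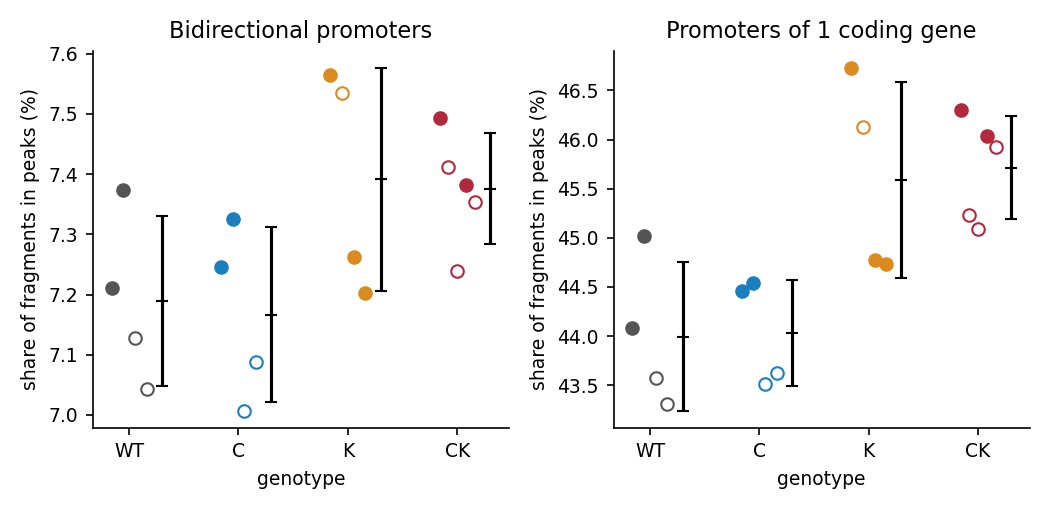
Share of fragments in peaks (%, y axes, not starting at 0) in bidirectional promoters (left) and single-gene promoters (right) by genotype (x axis), with filled points for libraries with Y chromosome signal, open points for those without, and bars for the mean ± SD. The bidirectional share runs from 7.007 to 7.374% in WT and C mice and from 7.203 to 7.565% in K and CK mice.

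In CK mice 43 bidirectional promoters (3.77%) were gained and 3 (0.263%) were lost against WT (edgeR quasi-likelihood test, adjusted p under 0.01 over all peaks). Over all peaks 3.54% were gained and 3.3% lost, so the gained share was near the background and the lost share below it. At single-gene promoters 1163 of 10982 (10.6%) were gained and 114 (1.04%) lost. The changes were small, with 1089 of 1142 promoters (95.4%) within 1.2-fold and 16 beyond 1.5-fold, at a median SE of 0.05 on the log2 scale. The median log2 fold change was 0.0325, against 0.0654 at single-gene promoters and 0.0029 over all peaks.

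The direction of the shift followed the scaling. With libraries scaled within 20 bins of GC content, 22 of the 43 promoters were gained and no others, while 81 were lost (7.09%), and the median log2 fold change became -0.0269. With that scaling 2.58% of all peaks were gained and 3.37% lost, and 5.51% and 4.8% of single-gene promoters. Without it the CK change rose with GC content, and 24 of the 286 promoters richest in GC (median 63.0%) were gained against 2 of the 286 poorest (median 51.1%). Spearman's rho of GC content and the CK log2 fold change over the 1142 promoters was 0.296, from the same libraries throughout. The gained count was 23 without WT replicate 3, 19 without WT replicate 4 and 27 without CK replicate 1. These WT libraries had the lowest GC slopes of all (-0.1006 and -0.1092), and CK replicate 1 the highest of the CK mice (0.104). The part of the slopes in these counts was not tested.

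**Figure D3:**
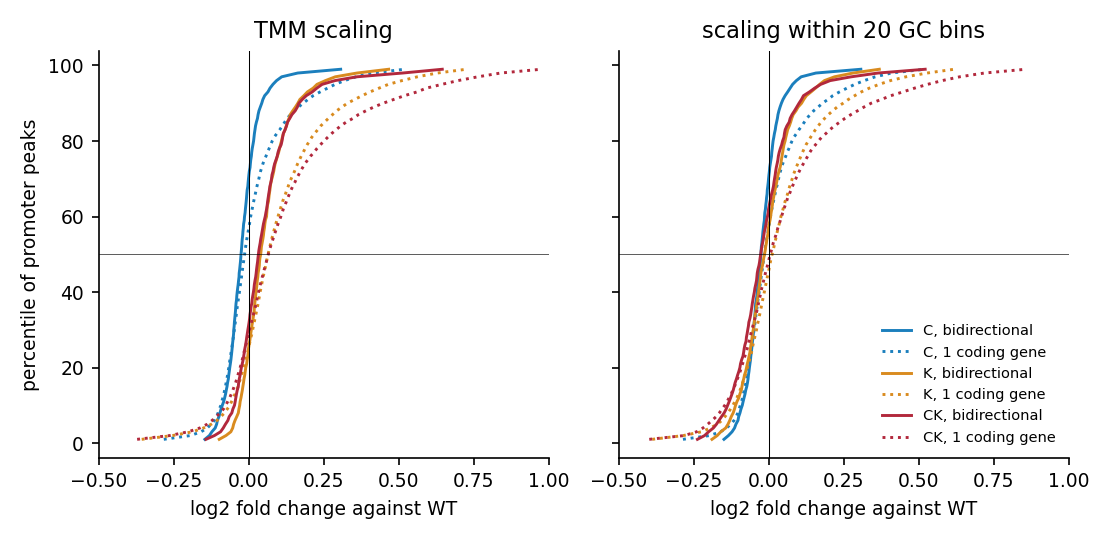
Percentiles of promoter peaks (y axis) by log2 fold change against WT (x axis) for bidirectional (solid) and single-gene promoters (dotted) in C, K and CK mice, with TMM scaling (left) and scaling within 20 GC bins (right). The solid K and CK lines cross the 50th percentile at 0.0401 and 0.0325 on the left and at -0.0142 and -0.0269 on the right.

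The gained promoters were weak in WT mice, with a median of 19 CPM against 59.2 CPM for those not called. Of the 286 promoters lowest in WT (median 29.0 CPM) 32 were gained, and of the 286 highest (median 100 CPM) 0. WT values enter both the level and the fold change, so this is a description. Single-gene promoters showed a like order. Below 5 CPM in WT 7 of 22 bidirectional promoters (31.8%) and 383 of 1534 single-gene promoters (25%) were gained. From 5 to 10 CPM these were 11 of 19 bidirectional promoters (57.9%) and 235 of 786 single-gene promoters (29.9%). From 10 to 20 CPM they were 4 of 29 bidirectional promoters (13.8%) and 215 of 1174 single-gene promoters (18.3%). From 20 to 40 CPM 10 of 221 bidirectional promoters (4.52%) and 215 of 2694 single-gene promoters (7.98%) were gained, and from 40 to 80 CPM 11 of 545 bidirectional promoters (2.02%) and 110 of 3531 single-gene promoters (3.12%). Above that level, where 26.8% of bidirectional but 11.5% of single-gene promoters lay, it was 0 of 306 and 5 of 1263. The difference between the classes within a bin was not tested.

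**Figure D4:**
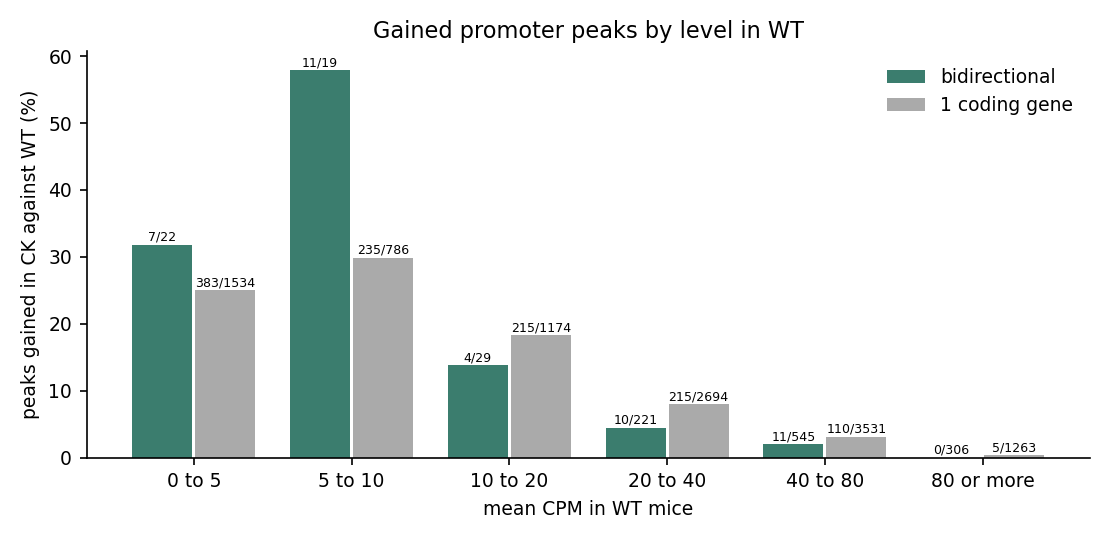
Share of promoter peaks gained in CK against WT (%, y axis) by mean CPM in WT mice (x axis) for bidirectional (green) and single-gene promoters (grey), with gained over total peaks above each bar. The bidirectional share is 31.8% and 57.9% in the lowest 2 bins, which hold 22 and 19 promoters, and 0 of 306 in the highest.

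Promoters named for a gain or loss against WT were chosen for having no overlap between the mutant and WT mice compared. That separation was fixed by the choice and is no added result. Acad8/Thyn1 (chr9:26999114-27000329) had the lowest adjusted p of the class in CK mice. Acad8 encodes isobutyryl-CoA dehydrogenase of valine breakdown, and Thyn1 a nuclear protein, and their TSSs lie 144 bp apart. The peak had 26.1, 25.1, 25.6 and 25.9 CPM in the WT mice, 33.6, 29.9, 31.8 and 33.0 in the C mice, 30.6, 30.1, 30.9 and 34.0 in the K mice and 36.0, 41.2, 37.8, 37.7 and 38.2 in the CK mice. Every C, K and CK mouse lay above every WT mouse, and every CK mouse above every C and K mouse. The log2 fold change was 0.57 ± 0.055 (SE, adjusted p = 6.7e-07) in CK, 0.32 ± 0.058 (SE, adjusted p = 0.00666) in C and 0.29 ± 0.058 (SE, adjusted p = 0.00468) in K by edgeR. It was the only bidirectional promoter called by edgeR in C against WT, and that call was lost when any of 7 of the 8 WT and C mice was left out, all but C replicate 2. The CK change differed from the C and K changes added together by -0.04 ± 0.079 (SE, adjusted p = 1.0), and all 3 share the WT mice.

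Acvr1/Upp2 (chr2:58566229-58568013) joins a type I receptor for bone morphogenetic proteins and a uridine phosphorylase. It had 3.83, 3.24, 3.09 and 3.27 CPM in the WT mice, 3.73, 3.25, 3.08 and 3.4 in the C mice, 5.2, 4.19, 4.55 and 3.6 in the K mice and 6.45, 5.71, 6.29, 6.72 and 6.11 in the CK mice. The CK mice stood above all others, K mice overlapped WT, and C mice overlapped WT. The log2 fold change in CK was 0.90 ± 0.12 (SE, adjusted p = 2.44e-05) against WT and 0.89 ± 0.12 (SE, adjusted p = 0.000148) against C by edgeR, and in K it was 0.38 (adjusted p = 0.0758), which did not pass.

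Zfyve28/Cfap99 (chr5:34287312-34288811) joins a FYVE-domain protein of endosomes and a gene named for cilia and flagella. It had 6.92, 7.83, 5.72 and 6.04 CPM in the WT mice, 8.31, 7.94, 6.98 and 7.81 in the C mice, 12.5, 10.0, 8.9 and 10.7 in the K mice and 13.3, 9.69, 11.8, 14.3 and 12.1 in the CK mice. All K and CK mice exceeded all WT and C mice, and C overlapped WT. By edgeR the log2 fold change was 0.89 ± 0.12 (SE, adjusted p = 3.59e-05) in CK and 0.67 ± 0.13 (SE, adjusted p = 0.00345) in K, and in C it was 0.23 (adjusted p = 0.642).

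Myl3/Pth1r (chr9:110741724-110743642) is an overlapping pair of a cardiac myosin light chain gene and the parathyroid hormone receptor gene, placed in the class by transcript starts and not by the annotated starts of both genes. It had 7.34, 5.9, 5.3 and 4.37 CPM in the WT mice, 7.17, 7.8, 7.48 and 7.17 in the C mice, 11.9, 8.61, 8.79 and 8.63 in the K mice and 10.7, 9.48, 9.42, 10.5 and 10.1 in the CK mice. All K and CK mice exceeded all WT and C mice, with K replicate 1 above the rest of its group. By edgeR the log2 fold change was 0.81 ± 0.12 (SE, adjusted p = 0.000112) in CK and 0.72 ± 0.13 (SE, adjusted p = 0.00221) in K.

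Kdelc1/Bivm (chr1:44118290-44120262) holds the start of an ER O-glucosyltransferase gene. It had 14.6, 12.7, 13.5 and 12.7 CPM in the WT mice, 16.1, 17.2, 18.5 and 17.1 in the C mice, 17.7, 17, 19.9 and 17.5 in the K mice and 18.6, 22.3, 21.7, 19.5 and 20.6 in the CK mice. WT mice lay below all others, and C below CK. By edgeR the log2 fold change was 0.62 ± 0.076 (SE, adjusted p = 1.4e-05) in CK and 0.43 ± 0.08 (SE, adjusted p = 0.00298) in K, and in C it was 0.36 (adjusted p = 0.0409), which did not pass.

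Lrba/Mab21l2 (chr3:86546471-86548604) holds Mab21l2, a gene of eye development that lies within Lrba, and a transcript start of Lrba, which encodes a vesicle protein that maintains CTLA4. It had 40.4, 44.2, 40.6 and 38.5 CPM in the WT mice, 45.9, 49.9, 47.6 and 49.1 in the C mice, 58.6, 51.6, 48.5 and 51.0 in the K mice and 57.7, 62.8, 64.2, 51.4 and 59.7 in the CK mice. WT mice lay below all others. By edgeR the log2 fold change was 0.53 ± 0.062 (SE, adjusted p = 7.39e-06) in CK and 0.36 ± 0.065 (SE, adjusted p = 0.00275) in K, and in C it was 0.23 (adjusted p = 0.15).

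Gm9945/Sowaha (chr11:53478390-53480399), an ankyrin-repeat gene with a predicted gene model, had 20.5, 20.9, 17.8 and 16.7 CPM in the WT mice, 22.4, 19, 19.4 and 18.8 in the C mice, 27.7, 26.9, 25.1 and 24.9 in the K mice and 28.8, 26.4, 28.0, 24.7 and 31.2 in the CK mice. All K and CK mice exceeded all WT and C mice. It was the only promoter of the class called by edgeR in CK and in K against both WT and C, with log2 fold changes of 0.55 ± 0.078 (SE, adjusted p = 5.42e-05), 0.46 ± 0.082 (SE, adjusted p = 0.00221), 0.48 ± 0.078 (SE, adjusted p = 0.00102) and 0.39 ± 0.082 (SE, adjusted p = 0.00888) in that order. Gm9955/Fhod3, which holds a formin of heart sarcomeres, went from 8.31 ± 0.62 CPM in WT (SD, n = 4) to 12.9 ± 1.1 in K (n = 4) and 13.1 ± 1.58 in CK (n = 5), and these K and CK mice lay above all WT and C mice. Its log2 fold changes were 0.63 ± 0.1 (SE, adjusted p = 0.00123) in K and 0.66 ± 0.099 (SE, adjusted p = 0.000102) in CK.

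**Figure D5:**
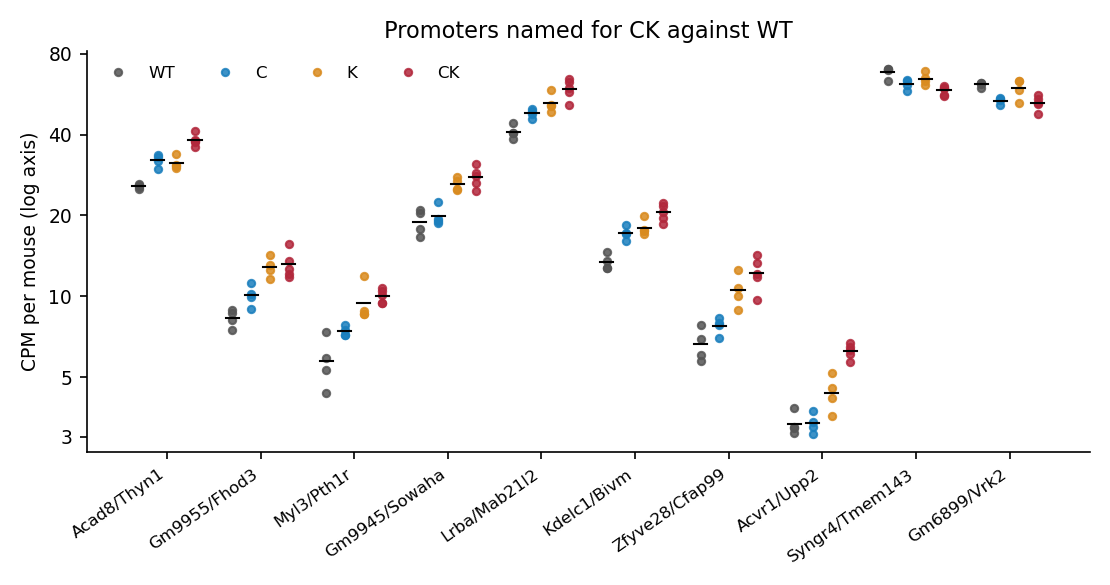
CPM per mouse (y axis, log scale) at the 8 gained and 2 lost bidirectional promoters named for CK against WT (x axis), with 1 point per mouse, colours for WT, C, K and CK, and black lines for the genotype mean. Every CK mouse lies above every WT mouse at the 8 gained promoters and below at Syngr4/Tmem143 and Gm6899/Vrk2, as the rule for naming them required.

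Of the lost promoters, Syngr4/Tmem143 (chr7:45896383-45898488), which holds genes of a synaptogyrin and of a transmembrane protein 227 bp apart, had 69.7, 70.2, 63.5 and 70.1 CPM in the WT mice, 63.5, 63.8, 57.9 and 61.4 in the C mice, 65.0, 68.8, 61.2 and 63.5 in the K mice and 59.5, 59.4, 56.3, 55.9 and 60.8 in the CK mice. The CK mice lay below all WT and K mice, and WT replicate 3 stood apart from the other WT mice. The log2 fold change in CK was -0.23 ± 0.046 (SE, adjusted p = 0.00169) by edgeR. It passed in each alternative fit and with each mouse left out, but lay under a 1.5-fold change. Gm6899/Vrk2 (chr11:26592596-26594195), where Vrk2 encodes a serine/threonine kinase, had 59.8, 62.4, 61.8 and 62.1 CPM in the WT mice, 51.6, 54.5, 53.6 and 54.6 in the C mice, 63.3, 58.8, 52.4 and 63.1 in the K mice and 52.2, 47.7, 52.4, 56.2 and 54.1 in the CK mice. The C and CK mice lay below all WT mice, and K mice spread over both ranges. Its log2 fold change was -0.23 ± 0.053 (SE, adjusted p = 0.00452) in CK and -0.20 (adjusted p = 0.143) in C by edgeR, and the CK call was lost without WT replicate 2, 3 or 4 or CK replicate 2. The other lost promoter, Tg/Sla, in which Sla encodes an adaptor protein of antigen receptor signalling, fell outside the naming rule and was named after its value was seen. It had 44.1, 34.5, 34.6 and 45.9 CPM in the WT mice and 31.2, 31.3, 29.2, 29.2 and 34.9 in the CK mice, which overlapped, and an edgeR log2 fold change of -0.35 in CK (adjusted p = 0.00933). With scaling within GC bins 2 of the 3 lost promoters still passed, Syngr4/Tmem143 and Gm6899/Vrk2, and Tg/Sla did not.

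In K mice 11 bidirectional promoters (0.963%) were gained and none lost against WT. Over all peaks 0.647% were gained and 0.828% lost, and at single-gene promoters 2.09% and 0.173%. At an unadjusted p under 0.05 there were 196 bidirectional promoters with a value above 0 and 4 below, in all 17.5% of the class beside 20.6% of all peaks. At single-gene promoters these were 2800 and 317, and over all peaks 6685 and 6787. DESeq2 called 19 bidirectional promoters gained and 0 lost. Scaling within GC bins gave 4 gained (0.35%) and 8 lost (0.701%), near the 0.367% and 0.727% of all peaks with that scaling, and moved the median log2 fold change from 0.0401 to -0.0142. The gained count was 1 without K replicate 1 or WT replicate 4 and 2 without WT replicate 3. Besides those described, P3h4/Fkbp10 (chr11:100413927-100415714), a pair of ER proteins of collagen processing, had 4.47, 4.7, 5.25 and 4.93 CPM in the WT mice, 5.9, 6.0, 5.16 and 5.42 in the C mice, 7.59, 6.97, 6.75 and 7.75 in the K mice and 8.42, 7.54, 6.72, 8.47 and 6.97 in the CK mice. Ccdc148/Pkp4 (chr2:59160209-59162068), which holds a plakophilin gene, had 48.8, 52.7, 47.8 and 49.1 CPM in the WT mice, 53.6, 51.1, 52.5 and 53.5 in the C mice, 63.5, 62.5, 59.1 and 58.8 in the K mice and 62.7, 54.0, 57.1, 65.1 and 67.9 in the CK mice. At both, all K and CK mice exceeded all WT and C mice, and the log2 fold change in K was 0.59 ± 0.11 (SE, adjusted p = 0.00298) and 0.30 ± 0.058 (SE, adjusted p = 0.00408) by edgeR. With scaling within GC bins the K values no longer passed at P3h4/Fkbp10, 0.42 (adjusted p = 0.0264), or Ccdc148/Pkp4, 0.14 (adjusted p = 0.104), and the adjusted p in K rose to 0.0161 at Acad8/Thyn1, 0.0133 at Gm9945/Sowaha, 0.0139 at Kdelc1/Bivm and 0.03 at Ppp1r3d/Fam217b. The 8 promoters named first for their gain in CK all passed in CK against WT with that scaling.

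Ppp1r3d/Fam217b (chr2:178414236-178414840), where Ppp1r3d encodes a subunit that targets protein phosphatase 1 to glycogen, was among the weakest of the promoters. It had 0.851, 0.888, 0.516 and 1.16 CPM in the WT mice, 1.13, 1.44, 1.42 and 0.85 in the C mice, 1.54, 1.64, 1.57 and 2.17 in the K mice and 2.02, 2.1, 1.99, 1.69 and 1.56 in the CK mice. All K and CK mice exceeded all WT and C mice, and the edgeR log2 fold change was 1.04 ± 0.23 (SE, adjusted p = 0.00883) in K and 1.15 ± 0.22 (SE, adjusted p = 0.000834) in CK. Of the other weak promoters Gm10447/Shroom1 and Mapk4/Gm9925 were gained in CK, with log2 fold changes of 0.80 ± 0.18 (SE, adjusted p = 0.00442) and 0.80 ± 0.12 (SE, adjusted p = 0.000143), of which the first no longer passed with scaling within GC bins, 0.70 (adjusted p = 0.0124).

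In C mice 1 promoter (0.0876%) was gained and none lost, beside 0.0596% gained and 0.101% lost over all peaks. At an unadjusted p under 0.05 there were 18 bidirectional promoters with a value above 0 and 46 below, in all 5.6% of the class beside 8.9% of all peaks. At single-gene promoters these were 580 and 391, and over all peaks 3038 and 2790. DESeq2 called 2 bidirectional promoters. The median log2 fold change was -0.0254, against -0.0136 at single-gene promoters and -0.0003 over all peaks, and 1127 promoters (98.7%) were within 1.2-fold. The sign of this class median followed the scaling. It was 0.0019 with total counts and 0.0101 with loess offsets, beside 0.0267 and 0.0029 over all peaks. With GC bins it was -0.0261, beside -0.0007.

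In CK against C 29 bidirectional promoters (2.54%) were gained and none lost. The gained share was 3.54% at single-gene promoters and 0.907% over all peaks, and the lost share 0.137% and 0.77%. The median log2 fold change of the class was 0.0514, against 0.0739 at single-gene promoters. Scaling within GC bins gave 6 gained bidirectional promoters (0.525%) and 5 lost (0.438%) with a median of -0.0016. With that scaling 0.348% and 0.557% of all peaks were gained and lost, and 0.874% and 0.483% of single-gene promoters. The gained count was 6, 3, 7 and 3 without C replicates 1 to 4 in turn, and 3, 7 and 14 without CK replicates 1, 4 and 5. Ctcf/Agrp (chr8:105635753-105638047), with the start of the insulator protein gene Ctcf and of a hypothalamic neuropeptide gene, had 70.7, 71.8, 63.2 and 68.3 CPM in the WT mice, 63.8, 65.1, 64.7 and 63.6 in the C mice, 90.2, 82.1, 70.0 and 72.7 in the K mice and 84.9, 70.9, 78.3, 81.5 and 81.1 in the CK mice. C mice lay close together and below all K and CK mice, and WT overlapped each of the other genotypes. Its edgeR log2 fold change was 0.30 ± 0.061 (SE, adjusted p = 0.0045) in CK against C and 0.21 (adjusted p = 0.019) in CK against WT, and with scaling within GC bins these became 0.12 (adjusted p = 0.104) and 0.02 (adjusted p = 0.81). 1110065P20Rik/Yrdc (chr4:124850015-124851614), where Yrdc encodes an enzyme of tRNA modification, had 50.1 ± 3.72 CPM in WT mice, 49.1 ± 1.64 in C mice, 62.8 ± 8.64 in K mice and 64.7 ± 6.14 in CK mice (SD, n = 4, 4, 4 and 5), a log2 fold change of 0.40 ± 0.074 (SE, adjusted p = 0.00278) in CK against C, which became 0.21 (adjusted p = 0.0193) with that scaling.

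In K against C 5 bidirectional promoters (0.438%) were gained and none lost, while DESeq2 called 31 and scaling within GC bins left 1. Over all peaks 0.283% were gained and 0.505% lost, and at single-gene promoters 0.783% and 0.118%. Besides Gm9945/Sowaha the 5 were Moap1/Tmem251 (chr12:102743179-102745217), which holds a Bax-binding apoptosis gene, Sdhaf2/Cpsf7, a succinate dehydrogenase assembly factor and a factor of mRNA 3′ end processing, Dcaf10/Exosc3, with an RNA exosome subunit, and Ap5m1/Exoc5, with an exocyst subunit. Moap1/Tmem251 had 105, 108, 100 and 98.1 CPM in the WT mice, 99.0, 100, 101 and 101 in the C mice, 117, 115, 116 and 112 in the K mice and 117, 109, 109, 115 and 113 in the CK mice. All K and CK mice exceeded all WT and C mice there, and the edgeR log2 fold change in K against C was 0.20 ± 0.04 (SE, adjusted p = 0.00748). It was 0.29 ± 0.06 (SE, adjusted p = 0.00812) at Sdhaf2/Cpsf7, 0.32 ± 0.068 (SE, adjusted p = 0.00943) at Dcaf10/Exosc3 and 0.24 ± 0.052 (SE, adjusted p = 0.00997) at Ap5m1/Exoc5. With scaling within GC bins Moap1/Tmem251 alone of the 5 still passed, and Gm9945/Sowaha had 0.24 (adjusted p = 0.0653) in K against C and 0.30 (adjusted p = 0.0116) in CK against C. The count was 1 without C replicate 1, 0 without any other C mouse or without K replicate 1 or 2, and 10 without K replicate 3.

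No bidirectional promoter was called in CK against K by edgeR, beside 0.00916% of all peaks. At an unadjusted p under 0.05 there were 30 (2.63%), and DESeq2 called 1, Acad8/Thyn1 (log2 fold change 0.28, adjusted p = 0.00473, against 0.0552 by edgeR). The median log2 fold change was -0.0064 at a median SE of 0.05, and 99.1% of promoters were within 1.2-fold. None was called either when CK was compared with the C and K changes added together, beside 0.0107% of all peaks, with 13 at an unadjusted p under 0.05 and 0 by DESeq2. The median SE of that comparison was 0.073, which limits the departures from the sum that could be seen at 1 promoter.

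Promoters were also grouped by what their genes do, and the housekeeping groups held few calls. Of 55 promoters of DNA repair genes 1 was gained in CK against WT and none lost, with a median log2 fold change of 0.0267 beside 0.0325 over the class and 3.54% of all peaks gained. It was Tsc2/Nthl1 (chr17:24632180-24633219), an inhibitor of mTORC1 and a base excision repair glycosylase with TSSs 52 bp apart, which had 29.4, 27.7, 27.6 and 25.7 CPM in the WT mice, 30.2, 29.9, 26.3 and 29.5 in the C mice, 34.2, 30.9, 29.5 and 32.9 in the K mice and 33.4, 37.9, 33.7, 33.5 and 30.2 in the CK mice. All K and CK mice exceeded all WT mice, and the edgeR log2 fold change in CK was 0.29 ± 0.065 (SE, adjusted p = 0.00338). None of 38 promoters of DNA replication and mitosis genes, 33 of mitochondrial ribosome genes, 34 of proteasome and chaperone genes, 9 of tRNA synthetases and 14 of GC and immune genes was called against WT in C, K or CK by edgeR with the reported scaling, or by DESeq2. Their median log2 fold changes in CK were 0.0109, 0.004, 0.024, 0.0189 and 0.009. With scaling within GC bins these groups had 1, 2, 2, 0 and 2 promoters lost in CK and none gained, beside 7.09% lost over the class, and their medians lay between -0.0495 and -0.0282. In K that scaling gave 1 lost promoter each among proteasome and chaperone genes and GC and immune genes.

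Of 44 promoters of respiratory chain and mitochondrial import genes, Tomm6/Frs3, with a subunit of the outer membrane translocase, was gained in CK (0.23 ± 0.054 (adjusted p = 0.00528) by edgeR). Of 15 with cytosolic ribosomal protein genes Rps14/Ndst1 was gained (0.24 ± 0.058 (adjusted p = 0.00679)), and of 34 with zinc finger genes Ethe1/Zfp575, which also holds a mitochondrial sulfur dioxygenase (0.27 ± 0.068 (adjusted p = 0.00919)). The medians of these groups were 0.0295, 0.0614 and 0.0633. With scaling within GC bins the adjusted p in CK was 0.0366 at Tsc2/Nthl1, 0.0407 at Tomm6/Frs3, 0.671 at Rps14/Ndst1 and 0.0527 at Ethe1/Zfp575, and none of these 4 passed. That scaling gave 4 lost promoters with DNA repair genes, 1 with respiratory chain and import genes, 0 with cytosolic ribosomal protein genes and 5 with zinc finger genes. The 825 promoters in no group held 39 of the 43 gained promoters and all 3 lost ones.

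RNA processing genes were held by 55 promoters. None was called against WT by edgeR with the reported scaling or by DESeq2. In CK against C 5 were gained, beside 2.54% of the class, 3.54% of single-gene promoters and 0.907% of all peaks. In K against C 2 were gained, beside 0.438%, 0.783% and 0.283% in that order. The median log2 fold change in CK against C was 0.0672 beside 0.0514 over the class. The difference of the group from the class was not tested. The 5 were Zdhhc3/Exosc7 (0.29 ± 0.06 (adjusted p = 0.00579)), Dcaf10/Exosc3 (0.31 ± 0.065 (adjusted p = 0.00581)), Exosc8/Alg5 (0.26 ± 0.056 (adjusted p = 0.00613)), Hnrnpk/Rmi1 (0.22 ± 0.048 (adjusted p = 0.00771)) and Srsf2/Mfsd11 (0.19 ± 0.042 (adjusted p = 0.00834)) by edgeR. Exosc3, Exosc7 and Exosc8 encode subunits of the RNA exosome, Hnrnpk an RNA-binding protein and Srsf2 a splicing factor. With scaling within GC bins none of the group was gained in CK or K against C and 3 were lost in CK against WT, and the CK against C value became 0.25 (adjusted p = 0.0107) at Zdhhc3/Exosc7, 0.13 (adjusted p = 0.183) at Dcaf10/Exosc3 and 0.03 (adjusted p = 0.662) at Hnrnpk/Rmi1. Zdhhc3/Exosc7 had 50, 50.8, 45.4 and 44.8 CPM in the WT mice, 46.3, 42.6, 47.4 and 42.6 in the C mice, 62.0, 54.1, 53.3 and 49.1 in the K mice and 56.6, 54.1, 50.2, 57.1 and 55.3 in the CK mice. K and CK mice exceeded all C mice, and WT overlapped each group. Against WT its log2 fold change in CK was 0.20 (adjusted p = 0.0284) and in C -0.09 (adjusted p = 0.714), and that of Hnrnpk/Rmi1 was 0.17 (adjusted p = 0.0201) and -0.05 (adjusted p = 0.811).

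Core histone genes, which lie in clusters of divergent replication-dependent copies, were held by 11 promoters with 29 genes of the list. All 11 had a log2 fold change below 0 in CK against WT, from -0.17 to -0.09, while 68.9% of the class lay above 0. None of the 11 was called by edgeR with the reported scaling. DESeq2 called 2 lost (adjusted p = 0.00249 at Hist1h4a/Hist1h3a/Hist1h1a and 0.00382 at Hist1h2bh/Hist1h3f), and scaling within GC bins called 1, the first of these, with -0.14 (adjusted p = 0.00996) and the values of all 11 below 0. Over all peaks 3.3% were lost in CK by edgeR with the reported scaling and 3.37% with GC bins, and the share by DESeq2 is not given here. With GC bins the class median was also below 0, at -0.0269. The median was -0.14 in CK, -0.13 in C and -0.01 in K mice. Hist1h4a/Hist1h3a/Hist1h1a had 166, 173, 175 and 183 CPM in the WT mice, 155, 161, 153 and 167 in the C mice, 170.0, 166, 169 and 170.0 in the K mice and 159, 161, 150, 158 and 161 in the CK mice. The CK mice lay below all WT and K mice, and C mice overlapped WT, K and CK. Its edgeR log2 fold change was -0.14 ± 0.037 (SE, adjusted p = 0.0107) in CK, and that of Hist1h2bh/Hist1h3f was -0.17 ± 0.046 (SE, adjusted p = 0.0105). These peaks are poor in GC for the class (49.6% and 47.2%), and histone genes have near-identical copies, so fragments may have been split between them.

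Textbook bidirectional pairs gave no call by edgeR with the reported scaling. Of 15 such pairs 13 lay in a promoter of the class, with 45.1 to 131 CPM in WT mice. In CK against WT 3.77% of the class and 3.54% of all peaks were gained, so 0 of 13 is no result about these pairs. Their log2 fold changes in CK against WT lay between -0.08 and 0.13, with a lowest edgeR adjusted p of 0.064. With scaling within GC bins 2 of them were lost in CK against WT, beside 7.09% of the class and 3.37% of all peaks. DESeq2 called 2 gained in CK against C, Hspd1/Hspe1 and Ranbp1/Trmt2a, beside 56 of the 1142 promoters of the class. Its share of all peaks is not given here. Hspd1/Hspe1 (chr1:55086866-55089107), the start of both mitochondrial chaperonin genes, had 85, 83.0, 76.1 and 70.9 CPM in the WT mice, 77.2, 72.5, 67.5 and 68.7 in the C mice, 95.5, 92.8, 77.8 and 79.0 in the K mice and 89.9, 78.8, 81.6, 89.7 and 88.8 in the CK mice. WT overlapped every other genotype, whereas all K and CK mice exceeded all C mice, and CK against C was 0.26 ± 0.064 (SE, adjusted p = 0.0151) by edgeR. Surf1/Surf2, with an assembly factor of cytochrome c oxidase, had 44.2, 46.6, 43.3 and 46.2 CPM in the WT mice, 49.4, 48.2, 39.9 and 47.3 in the C mice, 56.5, 49.4, 48.1 and 47.3 in the K mice and 48.6, 48.8, 44.5, 47.0 and 49.4 in the CK mice. Its K mice lay above all WT mice, and the edgeR log2 fold change was 0.16 (adjusted p = 0.142) in K and 0.08 (adjusted p = 0.41) in CK. At Atm/Npat, a DNA damage kinase and a coactivator of histone genes, the means were 101 ± 3.0 CPM in WT and 100 ± 2.3 in CK, and at Brca1/Nbr1, a homologous recombination factor and an autophagy receptor, 108 ± 4.59 and 107 ± 6.68 (SD, n = 4 and 5), with overlapping mice at both. Mcm4/Prkdc (replication and end joining), Psmb9/Tap1 (antigen processing) and Paics/Ppat (purine synthesis) had log2 fold changes between -0.02 and 0.05 in CK.

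Calls were found in both arrangements. In CK against WT 30 of 916 divergent promoters (3.28%) and 13 of 226 overlapping ones (5.75%) were gained, beside 3.77% of the class and 3.54% of all peaks. The overlapping ones were also lower in WT (median 47.6 against 59.8 CPM). The difference between the arrangements was not tested, and their counts with scaling within GC bins are not given here. The median log2 fold change in CK was 0.0448 at divergent distances up to 50 bp and 0.0106 at 500 to 1000 bp. The log2 fold change in CK at the closest pairs, Nsa2/Gfm2, Gm49661/Rnaseh2a/Prdx2 and Bag4/Lsm1, was -0.09, 0.11 and 0.02. The farthest, Dgka/Pym1 (3814 bp apart), Clec2i/BC035044 (overlapping by 3526 bp) and Slc37a3/Rab19 (3500 bp apart), had -0.14, -0.05 and -0.02. None of these 6 was called by edgeR (adjusted p from 0.0644 to 0.87), and with scaling within GC bins Bag4/Lsm1 was lost, -0.17 (adjusted p = 0.0084).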

How the data were processed

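ATAC-seq libraries of 17 mice were used, and the 7 sorted CB and CC libraries were not analysed here. The authors processed reads with the nf-core ATAC-seq pipeline on mm10 and deposited the raw count of fragments in each consensus peak, made by featureCounts 2.0.1 without strand. Per the file headers a fragment counted in every peak that held at least 0.2 of its length. The aligner and the treatment of duplicates are not given in the sources used here. No column was left out.

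TSSs of protein-coding transcripts came from GENCODE M21, and GC content and sequences from GRCm38 (pysam 0.24.0, Python 3.11.15). Peaks with fewer than 10 summed counts were to be removed, and there were 0. All 65483 peaks and 17 libraries were fitted with 1 coefficient per genotype and no covariate by edgeR 4.0.16 (TMM, glmQLFit, glmQLFTest, R 4.3.3), with Benjamini-Hochberg adjustment at 0.01. The scripts were tested on simulated counts. Figures were drawn with matplotlib 3.10.9.

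Promoters named were the 8 gained and 8 lost per mutant genotype with the lowest adjusted p whose mutant and WT mice did not overlap, up to 5 called in each other comparison, the 5 highest and 5 lowest in WT CPM per kb, textbook pairs, the 3 closest and 3 farthest TSS pairs, and up to 3 per gene group. Sequences were printed for some of these, and some items that the rule named are not reported here. The class, the gene groups and the tests were chosen with earlier results of these data known. Each mouse is a separate animal. Alternatives were 11 settings of the fit, among them DESeq2 1.42.0, GC bins, Y signal as a covariate and the replicate number as a block, other thresholds and TSS rules, and leaving out each mouse, and 1 more, leaving out Gm and Rik models, was chosen after seeing the data.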

Additional observations from a re-analysis of the deposited data

Results flagged for a closer look

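Within groups of 4 or 5 mice, 3 of 76 genotype groups tested, for the share of fragments and at the promoters named for called differences, had a lone library by Dixon's test at the 95% level, where chance flags about 1 in 20 groups. At Myl3/Pth1r, K replicate 1 had 11.9 CPM, against 8.61 to 8.79 CPM in the other K mice. At Gm9945/Sowaha, C replicate 1 had 22.4 CPM, against 18.8 to 19.4 CPM in the other C mice. At Syngr4/Tmem143, WT replicate 3 had 63.5 CPM, against 69.7 to 70.2 CPM in the other WT mice, and it still exceeded every CK mouse.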

How the results depend on the processing

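Counts of called promoters are given here as gained and lost in CK against WT, gained and lost in K against WT, and called in C against WT, CK against C, K against C, CK against K and CK against the sum of C and K. Scaling within GC bins moved CK from 43 gained and 3 lost to 22 and 81, K from 11 gained and 0 lost to 4 and 8, CK against C from 29 to 11 and K against C from 5 to 1, and turned the class medians to -0.0269 in CK and -0.0142 in K. It also called Srgap2/Fam72a (log2 fold change -0.19) and Bag4/Lsm1 (-0.17) lower in CK, whose reported values were above 0. DESeq2 gave 19 gained in K, 5 lost in CK, 2 in C, 56 in CK against C, 31 in K against C and 1 in CK against K. K against C gave 3 with DESeq2's size factors, 3 with total counts and 0 with loess offsets. The class median in C became 0.0019 with total counts and 0.0101 with loess offsets. Y signal as a covariate gave 5 lost in CK, 52 in CK against C and 2 in K against C, autosomal peaks alone 5 lost in CK, and a fit of the compared genotypes alone 2 in C. An adjusted p under 0.05 gave 105 gained and 11 lost in CK, 45 gained in K, 3 in C, 110 in CK against C and 58 in K against C. A change above 1.5-fold left 14 and 0 in CK, 5 gained in K, 0 in C, 4 in CK against C and 0 in K against C. TSSs of gene records (1093 promoters) gave 1 lost in K, 2 in C and 1 against the sum, those of any transcript (1207 promoters) 1 lost in K, 5 lost in CK, 2 in C and 1 against the sum, and divergent pairs at most 1000 bp apart (871) 1 lost in CK and 3 in K against C. Mean shares in WT, C, K and CK became 6.97, 6.94, 7.16 and 7.15% with gene records, 7.48, 7.46, 7.69 and 7.68% with any transcript, 5.59, 5.57, 5.75 and 5.74% with the divergent pairs and 7.4, 7.37, 7.59 and 7.58% of the fragments in autosomal peaks. Leaving out Gm and Rik models, chosen after seeing the data, kept 34 gained in CK and 8 in K. Apart from the tool, threshold or member rule that a setting itself changes, the causes of these moves were not tested. Except for GC bins, the share of all peaks called under the other fits and thresholds is not given here. Those counts therefore cannot tell a move of the class from a move of all peaks.

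With each of the 17 mice left out in turn, the counts ran over 19 to 44 gained and 1 to 6 lost in CK, 1 to 16 gained and 0 to 0 lost in K, 0 to 1 in C, 3 to 41 in CK against C, 0 to 10 in K against C, 0 to 0 in CK against K and 0 to 0 against the sum. The lost count in CK was 1 without WT replicate 4 or CK replicate 2, 6 without CK replicate 5, and 5 without WT replicate 1 or K replicate 1 or 2. K against C gave 3 without WT replicate 1 or CK replicate 1, 2 without WT replicate 3, K replicate 4 or CK replicate 4, and 9 without CK replicate 2. The class medians ran from -0.0405 to -0.0115 in C, 0.0202 to 0.0582 in K and 0.0147 to 0.0458 in CK. Of 49 called values at named promoters, 17 stayed called whichever mouse was left out.

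Replicate numbers recur across genotypes but mark no stated pairing. Deviations of same-numbered libraries from their genotype means had a median correlation of 0.1 over 24 pairs, 12 of which exceeded 0.1. Of 17 libraries 10 correlated best with their own number, from the data alone. Y signal partly followed the numbers, since replicate 1 had it in every genotype. The correlations were taken over all peaks, sex chromosomes included, and the part of Y signal in them was not tested. With the replicate block the counts were 75 gained and 12 lost in CK, 31 gained in K, 78 in CK against C and 45 in K against C, and of the core histone promoters 6 were lost in CK. The share of all peaks called with the block is not given here, so these counts are no result about the class alone. Depth limited single promoters little, with a median SE of 0.05 on the log2 scale in CK against WT, but the lowest promoter count in a library was 6 fragments.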
